A study of Mus musculus with 6 samples.

Results

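Guanylate-binding proteins (GBPs) and immunity-related GTPases (IRGs) are 2 families of interferon-inducible GTPases. Here, 10 of their genes were read at 1 h of a macrophage response to lipopolysaccharide. The 10 genes were taken by gene name, as the GENCODE M21 annotation gives it for each Ensembl identifier, from the 55335 genes of the count table. Of the names, 5 are GBPs (Gbp2, Gbp3, Gbp5, Gbp7 and Gbp9) and 5 are IRGs (Irgm1, Irgm2, Igtp, Iigp1 and Ifi47). The cells were bone marrow derived macrophages (BMDMs) of wild-type C57BL/6 mice, by the study's methods males of 7 to 10 weeks, grown from femur and tibia marrow in medium conditioned by L929 cells, a fibroblast line that supplies the macrophage growth factor M-CSF. Total RNA was sequenced from 3 libraries labelled PBS, the vehicle control, and 3 labelled LPS, the cell wall component of Gram-negative bacteria that is sensed by TLR4, each collected at 1 h. Both groups are wild type and by the labels differ in the agent alone. The dose of LPS for these libraries is not given in the sources used here, and nothing says whether the 3 libraries of a group came from separate animals, so the p-values measure only the spread between these libraries.

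GBPs are large dynamin-like GTPases that assemble as coats on bacteria and on the vacuoles of intracellular pathogens, where they open membranes and give caspase-11 (Casp4) access to bacterial LPS. IRGs are smaller GTPases that fall into regulators, which sit on the cell's own membranes and keep the others inactive, and effectors, which load onto pathogen vacuoles and break them. Transcription of both families is driven mainly by interferons, through STAT proteins, interferon regulatory factors (IRFs) and the promoter elements called ISRE and GAS, so that in macrophages given LPS they are known largely as a secondary response to the interferon-β that the cells release.

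Library totals ranged from 37787611 to 41516330 counts, and 15687 genes had enough counts to be tested with edgeR's quasi-likelihood test. Levels are given as CPM, the count of a gene divided by the library total, after TMM scaling, which sets the libraries to a common scale on the assumption that most genes do not change. The scaling bears on small changes, because the TMM factors were near 1.15 in the PBS libraries and 0.87 in the LPS libraries. Over all tested genes the median log2 change lay at -0.01 with TMM and at -0.42 when only the library totals were used (library size alone). The cells had the macrophage genes that their label names, with 785254 to 1129279 counts of Lyz2 per library, and all 7 macrophage markers were tested. Markers of other cells were mixed. Few markers of T cells (1 of 5), natural killer cells (1 of 4) and B cells (1 of 3) had enough counts to be tested. Markers of neutrophils (4 of 5), dendritic cells (4 of 4), fibroblasts (3 of 3) and endothelial cells (3 of 3) mostly had. The summed level of the fibroblast markers was 7.59 to 8.67 CPM in PBS and 8.67 to 9.80 CPM in LPS. The T cell receptor genes Cd3d, Cd3e and Cd3g had at most 9 counts in any library, Ly6g of neutrophils and Prf1 of cytotoxic lymphocytes had at most 3, and no listed marker was at 0 in all libraries. The 4 dendritic cell markers (Flt3, Zbtb46, Xcr1 and Siglech) were all higher in LPS, with a summed level of 3.15 to 4.01 CPM in the PBS libraries and 9.62 to 10.6 CPM in the LPS libraries, and their part in the results on GBPs and IRGs was not tested. The summed level went from 20.6 to 22.5 CPM in PBS to 30.6 to 31.0 CPM in LPS for the 5 T cell markers, nearly all of it Cd4, from 33.2 to 35.2 CPM to 43.4 to 45.3 CPM for the 5 neutrophil markers and from 35.4 to 38.6 CPM to 44.9 to 48.7 CPM for the 3 endothelial markers, and the part of these was not tested either. These levels follow the TMM scaling, and with library size alone 3 of the 4 dendritic cell markers met both criteria for a rise and none of the tested neutrophil markers passed. In RNA from whole cultures, fewer cells of a type and less RNA per cell cannot be told apart.

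At 1 h, 4 of the 5 GBP genes rose and all 5 IRG genes fell. The 4 GBP genes of chromosome 3 rose, led by a 19.3-fold rise of Gbp5, whereas Gbp9, on chromosome 5, fell with the IRGs. All 10 genes passed the filter on low counts and had an adjusted p under 0.05, 4 upward and 6 downward, in a comparison in which 67.7% of tested genes did so (32.9% upward and 34.9% downward). Differential expression, taken as an adjusted p under 0.05 with an absolute log2 fold change above 1, was met by 3 of the 10 genes, Gbp5 upward and Irgm2 and Iigp1 downward, against 20.9% of all tested genes in either direction (10.5% upward and 10.4% downward). A count of 3 in 10 stands near that background. The median of their log2 fold changes, -0.44, differed in sign from their mean of 0.21, Gbp5 being the single value above 1. By family, the median log2 fold change was 0.60 for the 5 GBPs and -0.55 for the 5 IRGs, beside -0.01 for all tested genes. The ranges of normalized CPM did not overlap between groups for any of the 10 genes, as held for 70.5% of all tested genes.

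**Figure D1:**
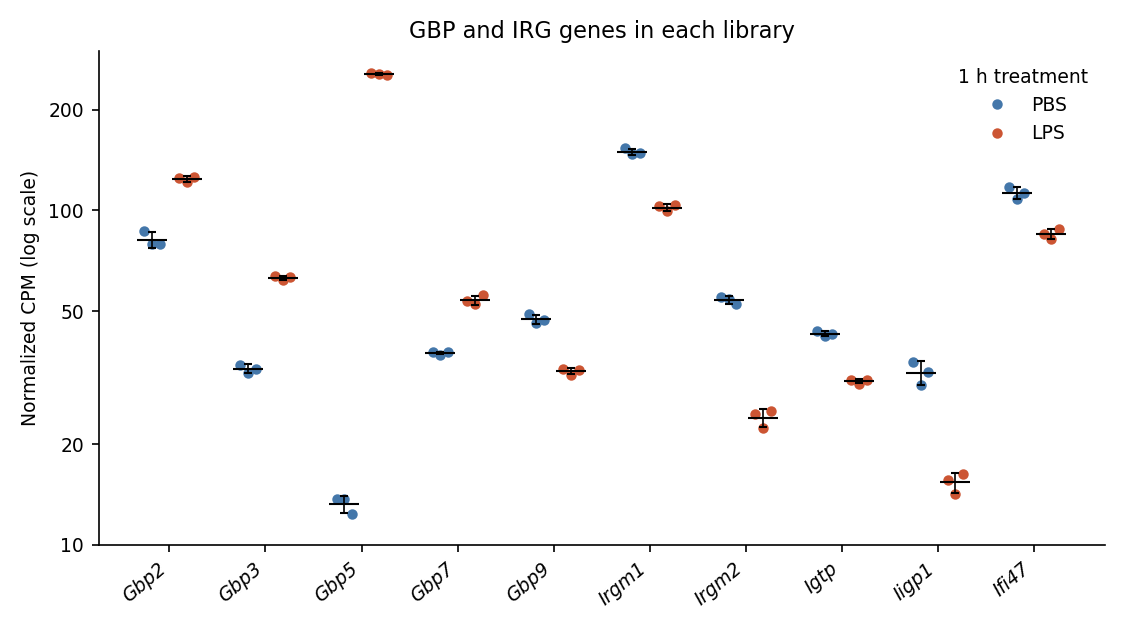
Normalized CPM on a log axis for the 10 genes in each library, with 3 PBS libraries (blue) and 3 LPS libraries (red) per gene; black bars are the mean ± SD. Gbp5 moves from 12.3 to 13.7 CPM in PBS to 253.5 to 257.5 CPM in LPS, and the points of the other 9 genes lie close together but apart by group.

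Gbp5 promotes assembly of the NLRP3 inflammasome and also acts at the Golgi. The gene (ENSMUSG00000105504.4) lies at chr3:142493978-142522344 of GRCm38 on the plus strand. It had 651, 619 and 569 counts in the PBS libraries and 8642, 8377 and 8626 in the LPS libraries. All 3 LPS libraries were more than 10 times above the highest PBS library, and each group varied little within itself. Its normalized level was 13.2 ± 0.782 CPM in PBS and 255.9 ± 2.14 CPM in LPS (SD, n = 3), and the log2 fold change was 4.27 (SE 0.04, edgeR adjusted p = 1.93e-22). Gbp5 ranked 255 of the 15687 tested genes by its rise, so that 1.62% of genes rose more. Leaving out any 1 library kept its log2 fold change between 4.22 and 4.30.

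Gbp2, Gbp3 and Gbp7 lie on the same strand within the same cluster, which with Gbp2b spans 144.031 kb, and they rose far less. Gbp2 is a prenylated GBP that targets pathogen vacuoles and whose loss impairs release of bacteria into the cytosol. It lies at chr3:142620602-142638008 and had 4138, 3586 and 3652 counts in PBS and 4197, 3970 and 4282 in LPS. The unscaled counts overlapped, and the normalized levels did not, at 81.8 ± 4.41 CPM in PBS and 124.2 ± 2.23 CPM in LPS. The log2 fold change was 0.60 (SE 0.04, adjusted p = 2.15e-10), which was 0.20 with library size alone (adjusted p = 0.000201).

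Gbp3, at chr3:142560026-142573209, showed 1646, 1469 and 1552 counts in PBS against 2136, 2021 and 2152 in LPS. Every LPS library exceeded every PBS library already in unscaled counts. Its normalized level rose from 33.6 ± 1.03 to 62.9 ± 0.902 CPM, by 87.4%, with a log2 fold change of 0.91 (SE 0.04, adjusted p = 7.99e-13) that was 0.50 with library size alone.

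Gbp7, which takes part in the delivery of oxidative and autophagic machinery to bacteria, is the neighbour of Gbp5, with 7.997 kb between the annotated ends at chr3:142530342-142550149. Its counts were 1792, 1673 and 1736 in PBS and 1794, 1710 and 1894 in LPS, and these ranges overlapped. After scaling, the groups were apart, at 37.4 ± 0.346 and 53.8 ± 1.66 CPM. The log2 fold change of 0.52 (SE 0.04, adjusted p = 2.32e-09) was the smallest rise among the members, and with library size alone it was 0.12 (adjusted p = 0.0131). Gbp7 shares 637 exonic bases, 11.3% of its own, with the pseudogene Gm43802, so reads in that stretch could be counted for either gene.

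The distance between Gbp5 and its neighbours does not depend on the scaling when it is read as a ratio within a library. The ratios here and below are of counts divided by the length of the union of annotated exons. The ratio of Gbp5 to Gbp7 was 0.307, 0.313 and 0.277 in PBS and 4.08, 4.14 and 3.85 in LPS, a 13.5-fold change. The ratio of Gbp5 to Gbp2 changed by 12.7-fold. All 7 ratios that were computed gave an exact two-sided permutation p of 0.1, with the groups apart in each. That is the smallest that 3 libraries against 3 allow when they are taken as unpaired, without the replicate numbers.

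Gbp9 is the GBP of the set that lies outside chromosome 3, at chr5:105077630-105139539 on the minus strand, among 6 GBP genes. It had 2330, 2075 and 2162 counts in PBS and 1126, 1051 and 1133 in LPS. The LPS counts were all lower by a wide margin. The normalized level fell by 30.1%, from 47.2 ± 1.54 to 33.0 ± 0.717 CPM, with a log2 fold change of -0.52 (SE 0.04, adjusted p = 6.84e-09). Gbp9 shares 60 exonic bases (1.16%) with both Gbp4 and Gbp8. Gbp2 and Gbp9, from clusters on different chromosomes, parted by 2.17-fold when read as a ratio within each library.

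Among the IRGs, the regulators Irgm1, Irgm2 and Igtp (also called Irgm3) all fell. Irgm1, which governs lysosome and mitochondrial homeostasis as well as IRG activity, lies at chr11:48861968-48871683 on the minus strand. It had 7309, 6650 and 6847 counts in PBS and 3452, 3242 and 3523 in LPS, so that each LPS library held fewer than any PBS library. The level fell by 31.9%, from 149.7 ± 3.35 to 101.9 ± 2.25 CPM, a log2 fold change of -0.55 (SE 0.03, adjusted p = 7.79e-11).

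Irgm2, a regulator at the Golgi that also restrains caspase-11 activation, lies at chr11:58199618-58222782 and changed most among the 5 IRG members. Its counts were 2624, 2460 and 2414 in PBS and 823, 728 and 852 in LPS. The PBS libraries stood together near 3 times the LPS libraries. The level was 54.0 ± 1.46 CPM in PBS and 23.9 ± 1.45 CPM in LPS, 2.25-fold lower, with a log2 fold change of -1.17 (SE 0.05, adjusted p = 2.82e-13). Leaving out 1 library at a time gave -1.21 to -1.12.

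Igtp, which is found at the endoplasmic reticulum, lies at chr11:58199556-58207591. It had 2074, 1908 and 1965 counts in PBS and 1047, 989 and 1055 in LPS, with no overlap. The level fell by 28.0%, from 42.8 ± 0.686 to 30.8 ± 0.471 CPM, a log2 fold change of -0.47 (SE 0.04, adjusted p = 1.62e-08). Igtp and Irgm2 overlap in the annotation on the same strand and share 162 exonic bases, 8.01% of Igtp and 4.39% of Irgm2. They nevertheless fell by unequal amounts. In counts per exon length, the ratio of Irgm2 to Igtp was 0.693, 0.707 and 0.673 in PBS and 0.431, 0.403 and 0.443 in LPS. The ratio of Irgm2 to Irgm1 was 1.53-fold lower in LPS.

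The remaining IRGs, Iigp1 and Ifi47, belong to the effectors. Iigp1 (also called Irga6), the best studied of the IRGs that load onto the Toxoplasma vacuole, had 1680, 1357 and 1517 counts in PBS and 525, 462 and 553 in LPS. The highest LPS library stayed well under the lowest PBS library. Its level was 32.7 ± 2.63 CPM in PBS and 15.4 ± 1.08 CPM in LPS, 2.13-fold lower, with a log2 fold change of -1.09 (SE 0.07, adjusted p = 7.01e-11) that lay between -1.15 and -1.04 when 1 library was left out.

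Ifi47 (also called Irgd), at chr11:49076587-49096974, had 5604, 4881 and 5209 counts in PBS and 2859, 2683 and 2988 in LPS. Every LPS library was lower than every PBS library. The level fell by 24.6%, from 112.9 ± 4.83 to 85.1 ± 2.80 CPM, the smallest change of the 10 genes with TMM, at a log2 fold change of -0.41 (SE 0.04, adjusted p = 4.48e-08). Ifi47 shares 111 exonic bases with Olfr56 on its strand and 106 with the pseudogene Gm12188 on the other.

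**Figure D2:**
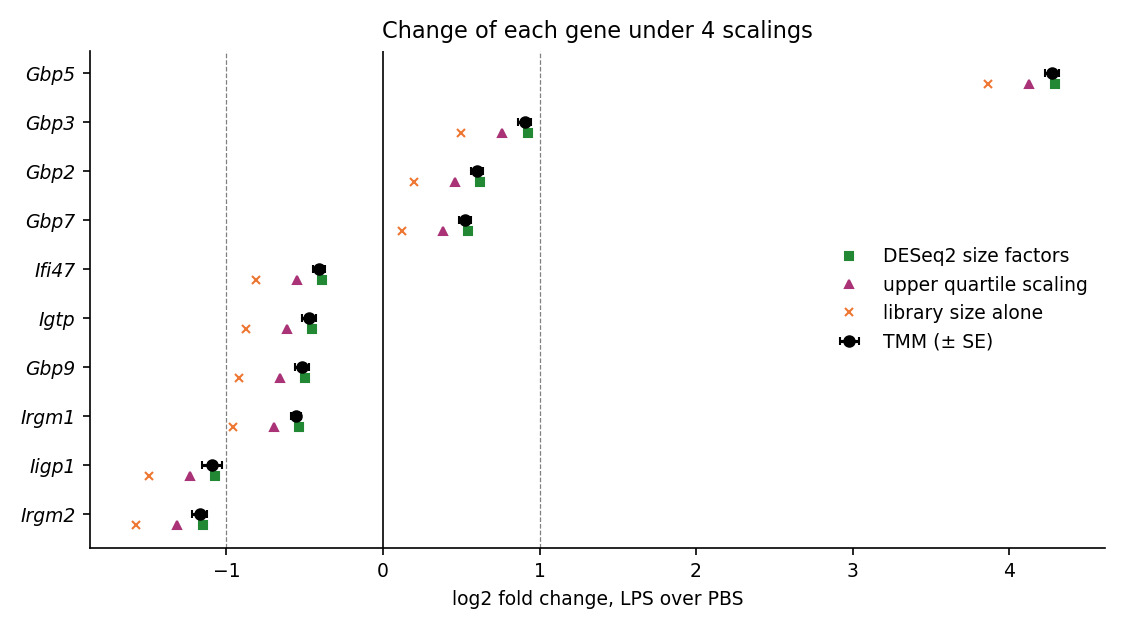
Log2 fold change of LPS over PBS for the 10 genes under 4 scalings, with black points for TMM (bars are SE), squares for DESeq2 size factors, triangles for upper quartile scaling and crosses for library size alone; dashed lines mark -1 and 1. Every symbol of a gene lies on the same side of 0, and library size alone shifts all genes toward lower values, Gbp7 from 0.52 to 0.12.

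The direction of all 10 genes was the same under each of 15 alternatives, and so was their side of the criteria. In each alternative all 10 had an adjusted p under 0.05, the largest being the 0.0131 of Gbp7 with library size alone.

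Levels of different genes can be compared only per length, for which counts were divided by the length of the union of annotated exons. In PBS the order was Ifi47 (45.6 ± 1.95 CPM per kb), Gbp2 (32.5 ± 1.75), Irgm1 (25.8 ± 0.576), Igtp (21.2 ± 0.339), Irgm2 (14.6 ± 0.395), Gbp3 (10.3 ± 0.315), Gbp9 (9.13 ± 0.297), Gbp7 (6.67 ± 0.0616), Iigp1 (5.62 ± 0.451) and Gbp5 (1.99 ± 0.118). The ranges of neighbours in that order were apart throughout. In LPS, Gbp5 moved from the last place to the second at 38.6 ± 0.323 CPM per kb, behind Gbp2 at 49.4 ± 0.886 and ahead of Ifi47 at 34.4 ± 1.13. Gbp3 (19.3), Irgm1 (17.5), Igtp (15.3) and Gbp7 (9.59) followed. Irgm2 and Gbp9 came next with overlapping ranges, at 6.49 ± 0.393 and 6.38 ± 0.139 CPM per kb, and Iigp1 was last at 2.64. Dividing by the longest transcript instead put Gbp5 first in LPS at 68.1 CPM per kb, so its place against Gbp2 rests on the length used. That length also changed the order in PBS, where Irgm1 (39.1 CPM per kb) passed Gbp2 and Iigp1 (10.5) passed Gbp7 and reached the range of Gbp9, and in LPS Gbp2 and Ifi47 then overlapped and Irgm1 passed Gbp3.

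Read as shares of the 10-gene total per length, which needs no scaling between libraries, the families exchanged places. GBPs made up 34.9 ± 0.293% of that total in PBS and 61.7 ± 0.460% in LPS, with 34.6 to 35.2% in the PBS libraries and 61.3 to 62.2% in the LPS libraries. Gbp5 alone went from 1.15 ± 0.0696% to 19.3 ± 0.453%. These shares depend on the length used. With the longest transcript, GBPs made up 30.1% in PBS and 60.7% in LPS, and Gbp5 went from 1.645% to 26.3%. The shares of Ifi47 and Irgm1, the largest IRG shares in PBS, went from 26.3% to 17.2% and from 14.9% to 8.79%. Per length, the ratio of Gbp2 to Irgm1, both well expressed in either group, was 1.31, 1.25 and 1.23 in PBS and 2.81, 2.83 and 2.81 in LPS.

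**Figure D3:**
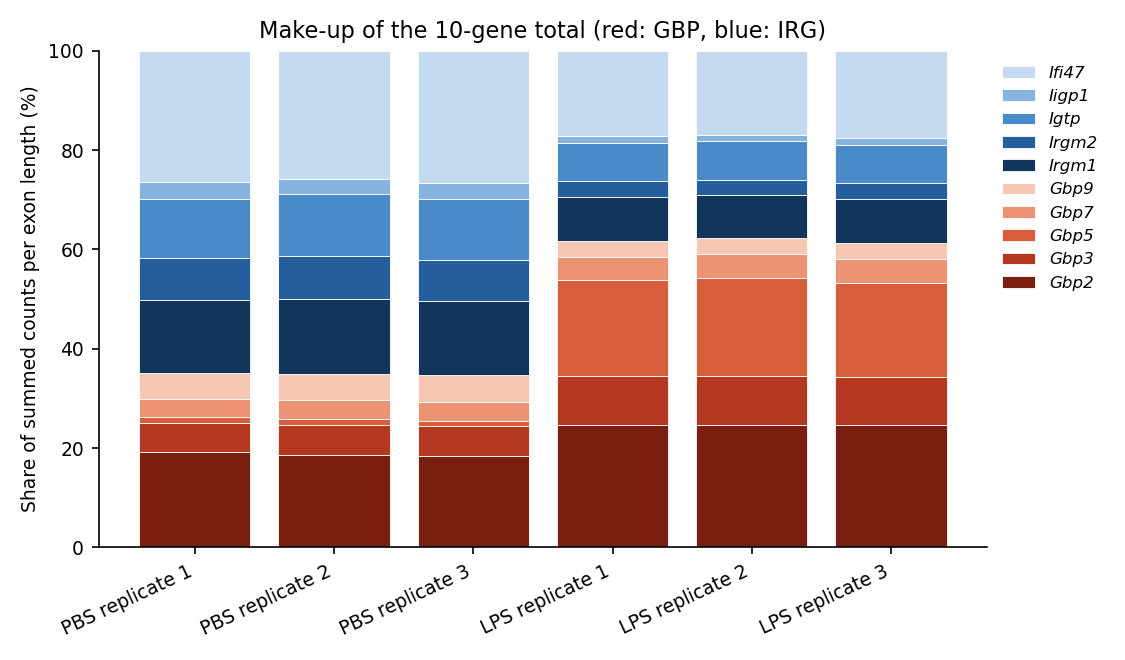
Share of each gene in the summed counts per exon length of the 10 genes, in percent, stacked for each of the 6 libraries, with GBPs in reds and IRGs in blues. The red portion is 34.9% on average in PBS and 61.7% in LPS, and the Gbp5 band widens from 1.15% to 19.3%.

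Promoter windows from RefSeq (GRCm38.p6), 250 bases before to 50 bases after a start, were found for 8 of the 10 genes and not for Gbp9 and Iigp1. They were searched on both strands for an ISRE core (GAAA and GAAA with any 2 bases between), a GAS element (TTCNNNGAA), an AP-1 site (TGANTCA) and the NF-kB consensus. The windows of 6 genes are printed because they set the induced Gbp5 beside its weakly induced neighbours Gbp2 and Gbp7, and beside the 3 IRG regulators that fell. The RefSeq starts of Gbp5 and Irgm2 lie inside the spans that GENCODE gives these genes. Capitals mark the letters that match a motif, on either strand.
Gbp5, chr3:142496684-142496983, plus strand: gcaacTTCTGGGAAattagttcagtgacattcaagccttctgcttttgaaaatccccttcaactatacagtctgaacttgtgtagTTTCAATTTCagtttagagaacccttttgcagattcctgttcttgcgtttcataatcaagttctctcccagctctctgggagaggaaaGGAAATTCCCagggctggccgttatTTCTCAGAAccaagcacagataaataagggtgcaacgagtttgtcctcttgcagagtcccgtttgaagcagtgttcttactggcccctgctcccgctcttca
Gbp2, chr3:142620413-142620712, plus strand: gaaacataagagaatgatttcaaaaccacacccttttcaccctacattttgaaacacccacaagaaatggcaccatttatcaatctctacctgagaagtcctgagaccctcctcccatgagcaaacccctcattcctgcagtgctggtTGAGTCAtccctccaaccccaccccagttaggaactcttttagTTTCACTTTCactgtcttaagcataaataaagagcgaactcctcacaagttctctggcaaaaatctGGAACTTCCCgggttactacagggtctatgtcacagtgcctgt
Gbp7, chr3:142530086-142530385, plus strand: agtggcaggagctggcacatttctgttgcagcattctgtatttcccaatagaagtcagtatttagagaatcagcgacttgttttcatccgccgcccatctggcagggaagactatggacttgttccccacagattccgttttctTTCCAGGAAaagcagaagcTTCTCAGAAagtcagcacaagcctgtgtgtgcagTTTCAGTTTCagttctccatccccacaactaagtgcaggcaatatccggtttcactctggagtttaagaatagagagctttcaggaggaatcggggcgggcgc
Irgm1, chr11:48871371-48871670, minus strand: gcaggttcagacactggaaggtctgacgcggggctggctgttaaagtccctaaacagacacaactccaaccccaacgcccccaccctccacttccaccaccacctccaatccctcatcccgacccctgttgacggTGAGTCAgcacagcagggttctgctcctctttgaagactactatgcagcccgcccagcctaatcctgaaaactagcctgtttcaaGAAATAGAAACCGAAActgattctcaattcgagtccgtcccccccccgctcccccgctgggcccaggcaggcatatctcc
Irgm2, chr11:58214727-58215026, plus strand: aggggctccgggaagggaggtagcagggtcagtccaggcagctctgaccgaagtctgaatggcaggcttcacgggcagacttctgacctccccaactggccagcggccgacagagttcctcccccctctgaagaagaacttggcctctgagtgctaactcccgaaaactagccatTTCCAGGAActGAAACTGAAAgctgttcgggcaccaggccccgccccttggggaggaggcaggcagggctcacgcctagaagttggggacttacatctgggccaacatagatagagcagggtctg
Igtp, chr11:58199306-58199605, plus strand: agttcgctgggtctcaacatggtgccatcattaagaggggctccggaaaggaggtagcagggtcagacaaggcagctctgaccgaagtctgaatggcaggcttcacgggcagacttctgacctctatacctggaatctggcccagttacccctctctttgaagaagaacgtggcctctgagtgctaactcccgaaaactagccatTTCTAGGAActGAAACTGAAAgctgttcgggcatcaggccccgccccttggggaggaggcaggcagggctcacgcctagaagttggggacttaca

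The ISRE core was present in 7 of the 8 genes with a window, all but Ifi47. Gbp3 has another window, which held none of the motifs. By window, the core was in 7 of 9, against 3.44% of 32851 windows of the genome. It occurred in genes that rose and in genes that fell. Its match began at -165 from the start in Gbp5, at -59 in Gbp2, at -53 in Gbp7, at -64 in Irgm2 and at -34 in Igtp. In Irgm1 a pair of overlapping matches began at -30 and -24, and in Gbp3, whose windows are not printed, a similar pair began at -45 and -39. GAS letters were in 4 genes, Gbp5, Gbp7, Igtp and Irgm2, against 8.30% of windows. In Gbp5 they began at -245 and -52, and in Irgm2 and Igtp they stood directly before the ISRE, at -75 and -45.

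NF-kB letters were found in Gbp5, beginning at -77, and in Gbp2, beginning at 8 within the transcribed part, against 8.46% of windows. A looser pattern (GGGA and CC with any 4 bases between) found the same pair and 20.7% of windows. The AP-1 letters were in Gbp2 at -102 and in Irgm1 at -115, against 7.81% of windows. Gbp5 was thus the single window of the 8 genes with ISRE, GAS and NF-kB letters together. The share of all windows that hold these together was not counted, and their part in its rise was not tested. The windows of Irgm2 and Igtp were 73.5% identical over 336 aligned columns, and the next closest pair of members, Irgm1 and Igtp, 53.9%. A match describes the letters in this window and does not show binding.

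The 6 other GBP genes and 13 other IRG genes or paralogs showed how far the directions held across the loci. Of the other GBPs, 4 were tested, and 3 fell while none met the fold criterion, with a median log2 fold change of -0.52. Gbp4 (269, 213 and 226 counts in PBS, 111, 103 and 115 in LPS) and Gbp6 (175, 153 and 167 against 97, 89 and 85) changed by -0.63 (SE 0.11, adjusted p = 5.93e-05) and -0.40 (SE 0.12, adjusted p = 0.00616). These and Gbp8 lie in the chromosome 5 cluster beside Gbp9. With library size alone 2 of the 4 met the fold criterion. Gbp2b, which lies between Gbp3 and Gbp2, had 4 to 18 counts per library and did not pass the test (log2 fold change -0.18, adjusted p = 0.707). Gbp8 and Gbp2b were named after their values were seen.

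Of the other IRG genes, 10 were tested, and 9 fell and 1 rose. Differential expression was met by 8, with a median log2 fold change of -1.24 over the 10. The largest falls were in 9930111J21Rik2 (3835, 3294 and 3455 counts in PBS, 760, 653 and 696 in LPS; log2 fold change -1.85), Gm4951 (2079, 1911 and 1961 against 458, 387 and 428; -1.75) and Tgtp2 (925, 927 and 945 against 193, 179 and 227; -1.75). All 3 fell more than any of the 5 IRG members. Irgq, a divergent IRG that is not known as interferon-inducible, rose from 1019, 982 and 1003 counts to 2679, 2661 and 2668 (log2 fold change 1.89, SE 0.04, adjusted p = 1.14e-17). Tgtp1 and Tgtp2 are near-identical copies, as are the 9930111J21Rik genes, so the split of reads within each pair is uncertain. Of the 4 genes of the very large inducible GTPase family that were tested, 2 fell (all 4 with library size alone). Gm1966, which is annotated as a pseudogene, met the fold criterion at -1.09 (SE 0.06, adjusted p = 1.13e-11).

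**Figure D4:**
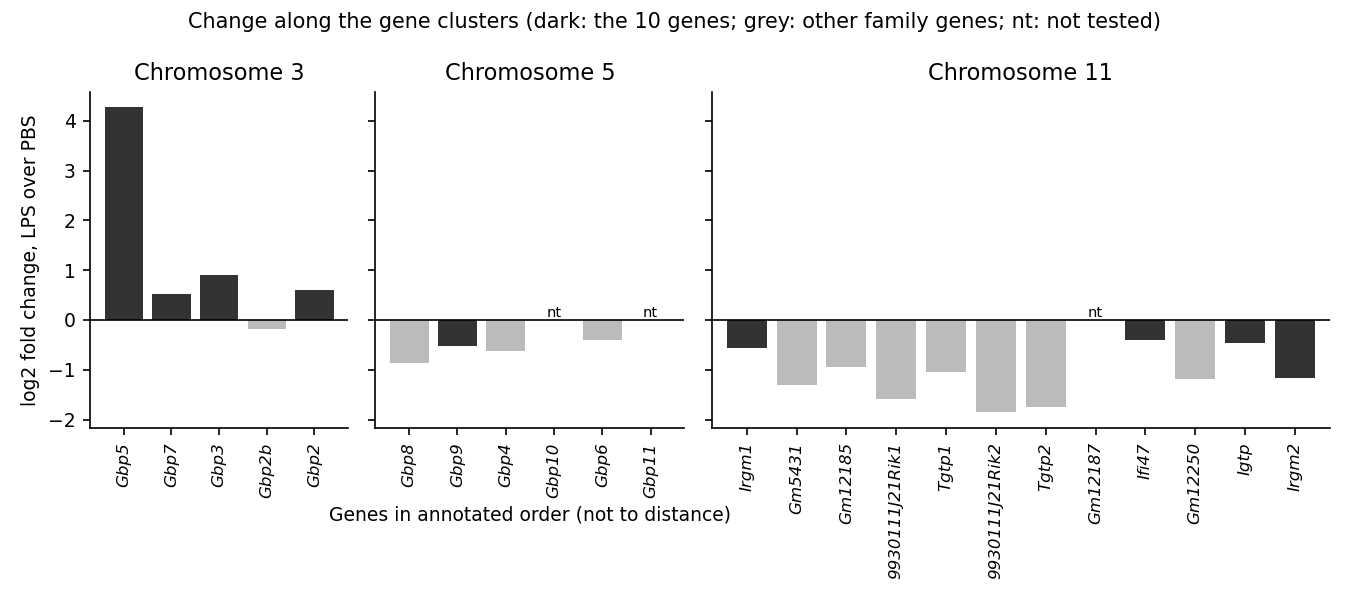
Log2 fold change of LPS over PBS for the family genes of chromosomes 3, 5 and 11 in their annotated order, without distances. Genes of the 10-gene set are dark, other family genes are grey and genes with too few counts are marked nt. Iigp1 and the other family genes of chromosome 18 are not drawn, nor are those of chromosome 7, which include Irgq. On chromosome 3 the 4 dark bars are above 0 with Gbp5 at 4.27, and every tested family gene of chromosomes 5 and 11 is below 0.

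Upstream genes of the pathway were read beside the members from lists of interferon signalling and IRF genes. Ifnb1, which encodes interferon-β, rose from 6, 2 and 1 counts to 1318, 1297 and 1447. Its log2 fold change of 9.22 (SE 0.15, adjusted p = 1.31e-19) rests on those few PBS counts. Ifng, the gene of interferon-γ, had 2 counts in 1 LPS library and 0 in the other 5, and was not tested. Of the 11 tested genes of interferons, their receptors, JAKs and STATs, 3 met the fold criterion, Ifnb1, Jak2 and Stat2. Jak2, a kinase of the interferon-γ receptor, rose from 2755, 2559 and 2565 to 18813, 18075 and 19373 counts (3.31, SE 0.04, adjusted p = 3.68e-22). Stat2 fell (-1.56, SE 0.04, adjusted p = 4.85e-16).

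Of 11 IRF and related regulators, 5 rose and 4 fell, a tally that turned to 2 and 7 with library size alone. Irf1, which binds the ISRE of GBP genes, rose from 6606, 6227 and 5939 to 19295, 19809 and 19778 counts (log2 fold change 2.12, SE 0.04, adjusted p = 8.83e-19). Irf4 rose by 2.49 (SE 0.06, adjusted p = 2.64e-17), and with Irf1 it was one of 2 in the list past the fold criterion, joined with library size alone by Irf8 (-1.20) and Ciita, both lower. Ciita, like Atg12 among the ATG8 genes, was named after its values were seen. Irf8 fell by 0.80 on the log2 scale (SE 0.04, adjusted p = 6.66e-13), from 12995 to 13307 counts in PBS down to 5344 to 5540 in LPS.

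Among 12 interferon-stimulated genes outside the GTPase families, 6 rose and 5 fell, with a median log2 fold change of 0.33. Of all tested genes, 32.9% rose and 34.9% fell by the same measure. With library size alone the tally of the list was 6 and 6, with a median of -0.08. Cxcl10, a chemokine, rose by 5.02 (SE 0.04, adjusted p = 1.36e-23), and Oasl1 (2.32), Isg15 (1.52) and Rsad2 (1.24) also met the fold criterion, which Rsad2 lost with library size alone (0.84). Ifit2, named after its values were seen, fell by 1.08 on the log2 scale (SE 0.04, adjusted p = 2.44e-14). The change of Gbp5, 4.27, lay between those of Cxcl10 and Oasl1, and the 5 IRG members changed by -1.17 to -0.41, beside -1.08 for Ifit2.

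Downstream of the GBPs, 8 genes of cytosolic LPS sensing and pyroptosis were tested, of which 4 rose, 3 fell and 3 met the fold criterion. Casp4, the sensor of cytosolic LPS, rose from 1252, 1162 and 1080 to 3698, 3413 and 3933 counts (log2 fold change 2.13, SE 0.05, adjusted p = 3.08e-17). Nlrp3, the inflammasome sensor whose assembly Gbp5 promotes, rose by 5.04 (SE 0.04, adjusted p = 8.61e-24), and Il1b by 11.77 (SE 0.05, adjusted p = 3.06e-27). The ATG8 conjugation genes, which direct IRGs and GBPs onto vacuoles, had 2 of 10 higher, 3 lower and none past the fold criterion, but with library size alone all 10 were lower and Atg12 passed it. Gabarap had a log2 fold change of 0.11 (SE 0.03, adjusted p = 0.0114) that turned to -0.30 with library size alone, and Map1lc3b one of 0.01 (SE 0.03, adjusted p = 0.783) that turned to -0.39.

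**Figure D5:**
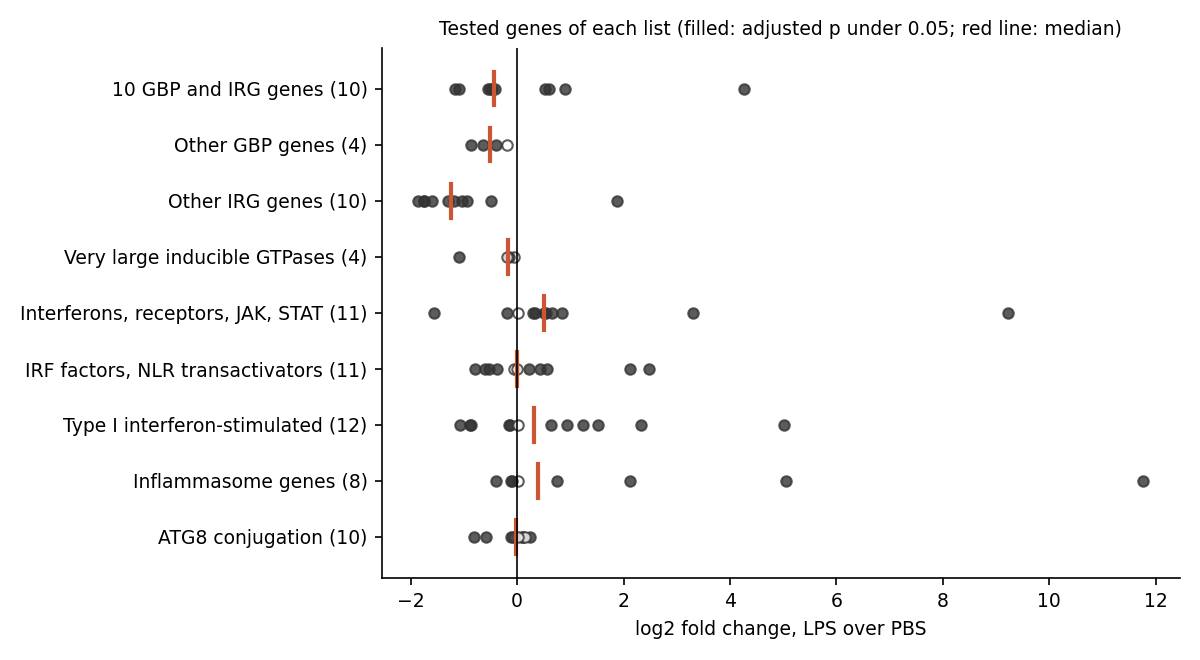
Log2 fold change of LPS over PBS for each tested gene of the 10-gene set and 8 related lists, with filled points at an adjusted p under 0.05, open points above it, and a red line at the median. The median lies at -1.24 for the other IRG genes and at 0.33 for the interferon-stimulated genes, and both lists hold genes on each side of 0.

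The genes whose pattern over the 6 libraries was most like that of Gbp5 were sought by the Euclidean distance of log2 CPM centred on the PBS mean. The nearest was Pvr, an adhesion receptor (distance 0.0642, log2 fold change 4.29), with 597, 578 and 536 counts in PBS and 8335, 7733 and 8171 in LPS. Icam1, the leukocyte adhesion molecule, followed at a distance of 0.0880 (4.26), and then came Nfkbie, an inhibitor of NF-kB (0.153, 4.35), A630081D01Rik (0.159, 4.29) and Zfp36, an mRNA decay factor (0.179, 4.26). With 2 groups of 3 libraries, the distance mostly reflects the size of the change.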

How the data were processed

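Total RNA libraries (TruSeq Stranded Total RNA) of BMDMs were sequenced as 101 bp paired-end reads, 3 labelled PBS and 3 labelled LPS at 1 h. The authors aligned the reads to GRCm38 with HISAT2 2.1.0, handled alignments with SAMtools 1.17 and deposited gene counts from featureCounts 2.0.0, without normalization. The annotation, strand setting and treatment of multi-mapping reads are not given in the sources used here, so genes that overlap or share sequence are uncertain. Of the 101-base words of each member, other genes shared 9.98% for Gbp7, 5.06% for Igtp, 2.95% for Irgm2, 1.61% for Gbp9 and under 1% for the rest.

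From the counts, LPS was compared with PBS in R 4.3.3 with edgeR 4.0.16 (filterByExpr, TMM, quasi-likelihood test, Benjamini-Hochberg adjustment over 15687 genes), and SEs were derived from the F statistic. Names and positions came from GENCODE M21 (55154 of 55335 identifiers matched without the version). Alternatives used limma 3.58.1, DESeq2 1.42.0, other scalings and filters, and each library left out. The test was checked first on simulated counts with 200 of 15687 genes changed strongly, equally up and down. That check does not bear on small changes or on the scaling between these groups. Reads were counted without molecular identifiers.

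The members, lists and tests were chosen with earlier results of these data known. All 10 members are named. From each list the text names the genes past both criteria (the 4 largest where more passed), or the 2 with the highest counts where none did, and always Irf1, Ifnb1, Ifng, Irf8 and Casp4. A further gene of this rule is not reported here. For the pattern of Gbp5 it names the 5 nearest genes, and overlapping genes are also named. Protein sequences were not analysed here.

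The labels call the replicate numbers batches, so the numbers pair the libraries. Deviations from the group means correlated at -0.0139, 0.0822 and 0.0387 between same-numbered libraries and at -0.0817 to 0.0446 between others.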

Additional observations from a re-analysis of the deposited data

How the results depend on the processing

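Direction and side of the criteria were kept by each of the 10 members under 15 alternatives, which gives 150 values. With the replicate block that follows the pairing in the labels, 3276 genes, 3 members and 22 genes of the related lists met the criteria, against 3277, 3 and 22 without it. The calls of the members and list genes were the same, and over all genes 3271 calls were shared, 6 were lost and 5 gained. With an adjusted p under 0.05 alone, 10919 genes passed with the block and 10626 without it. The number of genes that met the criteria was 2168 of 13793 tested where at least 10 counts in every library were required, against 3277 of 15687. That filter drops genes with few counts in any library, such as Ifnb1 in PBS. The number was 10626 with the adjusted p alone, which drops the fold criterion. With the adjusted p alone, 10 members and 57 genes of the related lists passed. The median log2 fold change of the members was -0.44 with TMM, -0.58 with upper quartile scaling and -0.85 with library size alone. Library size alone gave 1213 genes higher and 2964 lower, against 1653 and 1624 with TMM. Leaving out 1 library at a time gave 3370 to 3420 genes, 3 members each time, 21 to 22 list genes and member medians of -0.46 to -0.42. With library size alone Irf8 (-1.20), Ciita, Atg12 and others gained a call and Rsad2 (0.84) lost it. Tgtp1, at -1.04, lost its call without LPS replicate 2 (-0.95), LPS replicate 3 (-0.93), PBS replicate 2 (-0.98) or PBS replicate 3 (-0.998), at 8 to 28 counts. Levels per length depend on the exon length chosen, and small changes depend on the scaling, which put the median of all tested genes at -0.42 with library size alone and at -0.01 with TMM.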

Other observations

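In all, 5 family genes had too few counts to be tested, and their counts are given without a comparison. Gbp10 had 4, 3 and 1 counts in PBS and 1, 2 and 6 in LPS, and Gbp11 had 3, 4 and 5 in PBS and 1, 2 and 2 in LPS. Among the IRGs, Gm12187 had 3, 0 and 6 in PBS and 0, 1 and 0 in LPS, Gm4841 had 6, 5 and 7 in PBS and 3, 2 and 2 in LPS, and Irgc1 had 1, 3 and 2 in PBS and 6, 9 and 9 in LPS. They were named after their values were seen.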
